A study of Homo sapiens with 22 samples.

Results

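SPP1 and CD44 are 2 of the 33694 genes that were counted in single cells of a reprogramming time course. They were found by their symbols, each of which names 1 row of the gene list, and they had been chosen by their measured levels and shares of cells over the days, so those values are given here as a description with no test. Human BJ cells, a fibroblast line from foreskin, were turned towards pluripotent stem cells in microfluidic chips by repeated transfection of a mix of mRNA for NANOG, LIN28, MYC, KLF4, SOX2 and POU5F1, with the last transfection on day 8. Cells were collected on 8 days (D0, D3, D5, D7, D9, D11, D13 and D15), D0 being the fibroblasts before transfection. Every day has 2 pools of cells, A and B, each joined from several chips and frozen before capture, and these pools are the replicates (n = 2). A second aliquot was captured for 6 of the 16 pools, so there are 22 libraries. All pools come from 1 cell line, so the spread between them covers chips, freezing and capture but not donors. The p-values of comparisons between days measure only that spread. Where cells of the same pool are compared, p-values measure how far the difference varies from pool to pool, and not donors either.

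SPP1 encodes osteopontin, a secreted, phosphorylated matrix protein of the SIBLING family that is known from bone, from activated macrophages and from the endometrium and placenta. It binds integrins through an RGD sequence, and cells also use CD44 to respond to it. CD44 is a surface glycoprotein whose main ligand is hyaluronan. It is abundant on fibroblasts and other mesenchymal cells, is tied to the actin cytoskeleton by ezrin, radixin and moesin, and is spliced into forms with or without variable exons, a choice that the epithelial splicing regulators ESRP1 and ESRP2 are known to control.

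SPP1 (ENSG00000118785) lies on chromosome 4 of GRCh38 from 87975667 to 87983532 on the plus strand, and its main transcript has 7 exons. CD44 (ENSG00000026508) lies on chromosome 11 from 35138882 to 35232402 on the plus strand, with 18 exons in its main transcript. Reads were taken at the 3′ end of transcripts, so the splice forms of CD44 cannot be told apart in these counts. The promoter windows of both genes are shown because the levels of both moved over the days, and because factors that are known to bind such sites are among the genes counted. The windows run from 250 bases before the transcription start to 50 bases after it and are taken from RefSeq on GRCh38.p14, at chr4:87975464-87975763 for SPP1 and chr11:35138921-35139220 for CD44, both read on the plus strand. The gene positions above are gencode spans over all transcripts of a gene, 26 for SPP1 and 38 for CD44. Their first bases are therefore not the transcript starts used for the windows. The whole CD44 window lies after the first base of the CD44 span. Capitals mark the 1 match to any of the 6 motifs that were searched.
SPP1: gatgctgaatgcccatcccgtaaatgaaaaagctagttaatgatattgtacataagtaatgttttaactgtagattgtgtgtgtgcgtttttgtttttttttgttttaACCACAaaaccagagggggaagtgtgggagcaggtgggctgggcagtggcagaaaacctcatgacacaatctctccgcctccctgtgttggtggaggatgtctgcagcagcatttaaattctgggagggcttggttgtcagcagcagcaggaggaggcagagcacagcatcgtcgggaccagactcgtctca
CD44: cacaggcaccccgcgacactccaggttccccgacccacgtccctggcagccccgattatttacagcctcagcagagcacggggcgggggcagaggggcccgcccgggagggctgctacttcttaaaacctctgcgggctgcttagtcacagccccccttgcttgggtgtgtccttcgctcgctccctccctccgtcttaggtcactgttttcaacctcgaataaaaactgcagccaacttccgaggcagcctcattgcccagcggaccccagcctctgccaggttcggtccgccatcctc

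The motifs were searched on both strands. They were TATAAA for the core promoter box, TGTGGT for RUNX factors, TGANTCA for AP-1, GACCACCCA for GLI factors, ATGCAAAT for octamer factors and CCGGAAG for ETS factors. The window of SPP1 holds the RUNX letters once, on the minus strand, starting 142 bases before the start, and that of CD44 holds none of the 6. Of all 35116 RefSeq windows of this length, 13.1% hold the RUNX letters, 11.5% the core promoter box, 10.3% the ETS letters, 7.71% the AP-1 letters, 1.77% the octamer and 0.236% the GLI letters. G and C make up 47.7% of the SPP1 window and 63.3% of the CD44 window, against a median of 58.7% over all windows. A match describes the letters in the window and is not a measured binding site.

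Of 44197 barcodes, 41975 had at least 1000 genes and at most 10% mitochondrial unique molecular identifiers (UMIs) and were kept as cells. A pool held between 571 and 6142 cells and between 33181614 and 180056814 UMIs, and the median cell of a library held between 23717 and 88662 UMIs. Levels are the UMIs of a gene scaled to a total of 1000000 UMIs per pool (CPM). In a pool's CPM, fewer cells with a transcript and less of it per cell cannot be told apart, so shares of cells are given too. Shares of cells with a UMI were taken after each cell had been thinned to 5000 UMIs, since the depth per cell differed between days. The same barcode occurred in more than 1 library for 2143 cells, and in any pair of libraries these were at most 2.11% of the cells of the smaller one. Leaving these cells out moved no SPP1 or CD44 ratio over the 4 spans given below by more than the spread between pools.

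SPP1 was near absent from the starting fibroblasts, rose from D5 and peaked on D9. On D0 it stood at 0.582 CPM in pool A and 0.659 CPM in pool B, and on D3 at 2.16 and 1.73 CPM. On D5 the pools held 83.8 and 85.2 CPM. Their first and second aliquots were at 87.9 and 68.6 CPM in pool A and at 157 and 59.9 CPM in pool B. On D7 the pools held 394 and 260 CPM. Both pools were thus far above those of D3 before the last transfection had been given. On D9 SPP1 reached 1177 and 1315 CPM. On D11 it was at 577 and 630 CPM, on D13 at 418 and 144 CPM, and on D15 at 53.4 and 106 CPM. The 2 pools of D9 were above all other pools, and those of D13 differed 2.90-fold from each other, which was the widest gap between pools of a day for this gene.

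The steps between neighbouring days were taken from a fit of edgeR over all 16 pools and are given with their standard errors (SE) and no test. SPP1 was 3.05-fold higher on D3 than on D0 (log2 1.61, SE 0.42) and 42.1-fold higher on D5 than on D3 (log2 5.39, SE 0.46). It was 3.86-fold higher on D7 than on D5 (log2 1.95, SE 0.39) and 3.71-fold higher on D9 than on D7 (log2 1.89, SE 0.39). After the peak each step went down, by 1.06 on the log2 scale from D9 to D11 (SE 0.38), by 1.09 from D11 to D13 (SE 0.38) and by 1.74 from D13 to D15 (SE 0.39). The paper's methods give serum medium for the fibroblasts and a reprogramming medium during transfection. In every comparison with D0, day, transfection and medium thus cannot be told apart. The medium was changed again from D9 on, after the last transfection on day 8. Day, medium and the end of transfection therefore cannot be told apart after D9.

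The share of cells with an SPP1 UMI followed the same course. The fibroblasts of D0, in which the gene is near absent, gave a share of 0.360% ± 0.0206 (SD, n = 2 pools), at a median depth of 23717 and 28376.5 UMIs per cell before thinning. Cells of D3 gave 0.804% ± 0.367, and those of D5 12.2% ± 1.03. The share then stood at 43.9% ± 20.8 (D7), at its highest of 78.1% ± 7.35 (D9), and at 64.3% ± 10.6 (D11). It came down to 40.5% ± 5.33 (D13) and 20.7% ± 6.52 (D15). On D7 the pools differed most, with 58.6% of cells in pool A and 29.2% in pool B. Early SPP1 came from few cells. On D5, 1.70% of the cells of pool A and 1.72% of those of pool B held 50% of the SPP1 UMIs, and 1 cell of pool A carried 337 of them. On D9 the cells that held 50% of the UMIs were 12.3% of pool A and 15.2% of pool B.

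CD44 ran the other way up to the peak of SPP1 on D9. After D9 the mean level of neither gene rose again. CD44 was highest in the fibroblasts of D0, with 557 and 596 CPM in pools A and B. It held 271 and 198 CPM on D3 and 276 and 177 CPM on D5. On D7 the pools held 64.9 and 130 CPM, on D9 59.2 and 41.9 CPM, and on D11 44.8 and 50.8 CPM. The first and second aliquots of D9 were at 20.4 and 64.0 CPM in pool A and at 24.9 and 55.6 CPM in pool B. By D15 CD44 was at 11.1 and 13.7 CPM. No later pool overlapped the pools of D0, and both pools of D15 were below all earlier pools. Between neighbouring days CD44 fell by 1.34 on the log2 scale from D0 to D3 (SE 0.35), by 1.21 from D5 to D7 (SE 0.35) and by 0.98 from D7 to D9 (SE 0.35). From D3 to D5 it differed by −0.11 (SE 0.35) and from D9 to D11 by −0.10 (SE 0.35), each less than the error. It fell again by 0.97 from D11 to D13 (SE 0.35) and by 0.89 from D13 to D15 (SE 0.36). The share of cells with a CD44 UMI came to 92.7% ± 0.685 (SD, n = 2) in the fibroblasts of D0, 57.4% ± 6.55 by D5 and 18.3% ± 3.95 by D9. It ended at 5.37% ± 1.66 on D15.

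**Figure D1:**
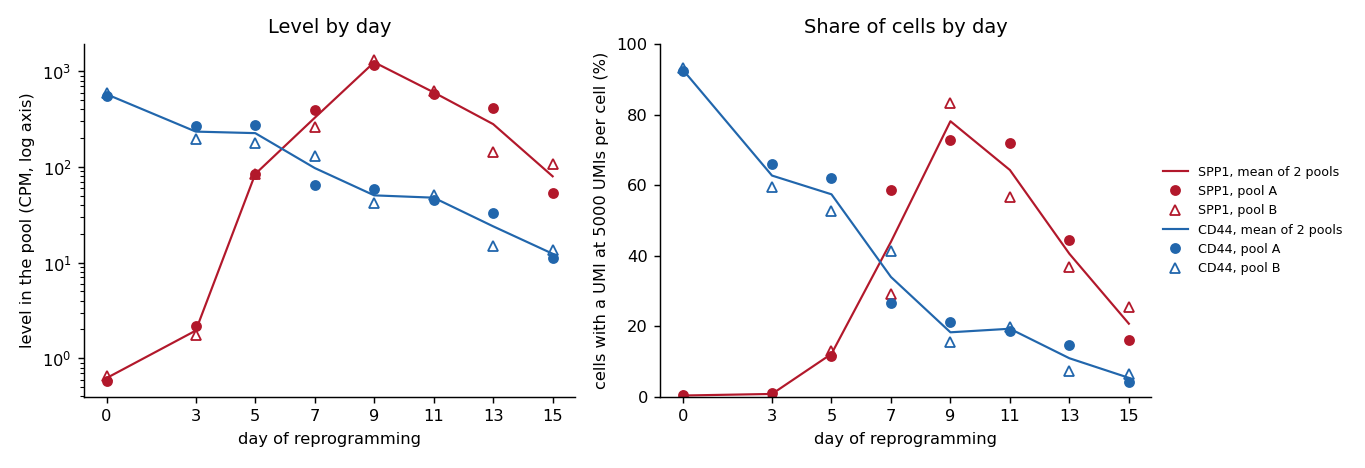
SPP1 (red) and CD44 (blue) by day. The left panel gives the level in each pool in CPM on a log axis and the right panel the share of cells with a UMI at 5000 UMIs per cell, with filled circles for pool A, open triangles for pool B and lines through the means of the 2 pools. SPP1 peaks on D9 at 1177 and 1315 CPM, and CD44 goes from 557 and 596 CPM on D0 to 11.1 and 13.7 CPM on D15.

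Ordered by the mean of the pools, SPP1 was highest on D9, then on D11, D7, D13, D5, D15, D3 and D0. The pools of D7 and D13 overlapped, and so did those of D5 and D15, so these neighbours in the order are not told apart by their pools. For CD44 the order was that of the days, D0 being highest and D15 lowest, and the pools of D3 and D5 and those of D9 and D11 overlapped. Over the 16 pools the 2 genes had a Pearson r of −0.653 on the log2(CPM + 1) scale, as a description of pools that share days.

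Other genes of osteopontin and CD44 biology were taken from a list of 50, of which 39 had a UMI in at least 5% of cells and were tested. A gene was called changed at an adjusted p below 0.01 (Benjamini-Hochberg, over all 12794 genes tested with edgeR's quasi-likelihood test) and a log2 fold change beyond 0.25. The other ligands of the SIBLING family, the bone and tooth proteins IBSP, DMP1, DSPP and MEPE, were too rare to be tested, and none had a day mean above the 0.563 CPM of IBSP on D3. SPP1 was thus the 1 member of its family at a level that could be tested. Between D3 and D0, 2 of the 39 genes were called higher and 7 lower, where 13.1% of all genes tested were higher and 12.6% lower. Between D7 and D3, 5 were higher and 1 lower (6.48% and 1.45% of all genes). Between D11 and D7, 8 were higher and 2 lower (7.64% and 3.88%), and between D15 and D11 0 were higher and 7 lower (2.53% and 6.18%). Of the genes that were higher on D15, 3 had an unadjusted p under 0.05 in edgeR, and DESeq2 called 1. The median log2 change of the 39 genes was −0.41, 0.13, 0.35 and −0.54 over these 4 spans, beside −0.06, −0.02, −0.01 and 0.00 over all genes. The list was drawn up with earlier results of these data known, and these counts are a description of it.

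Among the integrin subunits that serve as osteopontin receptors, ITGA4 and ITGA8 had called changes, all of them falls. ITGA4 stood at 35.3 and 25.1 CPM in pools A and B on D7 and at 8.12 and 7.07 CPM on D11 (log2 −2.04, adjusted p = 0.0030, edgeR). It fell by 1.87 from D11 to D15 (adjusted p = 0.0087). ITGA8, at 1.35 and 2.46 CPM on D11, fell by 2.44 to D15 (adjusted p = 0.0091). ITGAV, the alpha chain of the classical osteopontin receptor, passed no test over the 4 spans and had day means from 21.8 CPM on D0 to 44.5 CPM on D11. Its beta partner ITGB3 had at most a day mean of 0.505 CPM and was not tested, whereas ITGB1 had day means from 328 CPM on D15 to 705 CPM on D11 and ITGB5 from 8.09 CPM on D3 to 46.0 CPM on D11. ITGB1 and ITGB5 had no called change over the 4 spans either.

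Of 8 tested genes of the hyaluronan system, the other ligand of CD44, CEMIP was called lower and HAPLN1 and HAS3 higher, and HAS2, HYAL1, HYAL2, VCAN and TNFAIP6 passed the test in none of the 4 spans. CEMIP, which degrades hyaluronan, was at 25.9 and 28.2 CPM on D0 and fell by 2.41 on the log2 scale to D3 (adjusted p = 0.0022) and by 2.38 to D7 (adjusted p = 0.0065). HAPLN1, which links hyaluronan to proteoglycans, went from 7.01 and 5.42 CPM on D7 to 35.0 and 40.5 CPM on D11 (log2 2.54, adjusted p = 1.6e-05). HAS3, a hyaluronan synthase, was called higher over the same span at low levels (log2 2.26, adjusted p = 3.1e-05), from 0.946 and 0.870 CPM on D7. From D3 to D7, HAPLN1 (log2 2.25) and HAS3 (log2 2.74) were called higher as well, HAS3 from 0.107 and 0.146 CPM. SRGN, the core protein of a proteoglycan that CD44 binds, fell by 1.75 from D0 to D3 (adjusted p = 9.4e-04). From D11 to D15 its log2 change was −3.41 (adjusted p = 2.3e-04).

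The splicing regulators of CD44 rose while CD44 itself fell. ESRP1 was at 0 and 0.00662 CPM in pools A and B on D3, at 0.967 and 1.02 CPM on D7 and at 18.8 and 27.1 CPM on D11. Its rise from D7 to D11 came to a log2 change of 4.46 (SE 0.30, adjusted p = 8.6e-07). ESRP2 rose by 3.47 over that span (adjusted p = 2.6e-04), from 0.406 and 0.497 to 3.71 and 6.79 CPM. From D3 to D7, ESRP1 (log2 7.54) and ESRP2 (log2 3.24) were called higher as well, ESRP2 from 0.0426 and 0.0464 CPM. Of the linkers to actin, EZR was called higher on D11 than on D7 (110 and 77.0 CPM against 206 and 240 CPM), and MSN and RDX had no called change over the 4 spans.

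Of the proteases and modifiers, MMP9, a gelatinase that is known to cut osteopontin and to bind CD44, had the largest change of the list from D7 to D11. It was at 0.743 and 0.578 CPM on D7 and at 132 and 105 CPM on D11 (log2 7.44, SE 0.42, adjusted p = 3.5e-07), and it was called lower again on D15, at 21.4 and 25.7 CPM. MMP9 was also called higher on D7 than on D3 (log2 5.56), from 0.0213 and 0.00662 CPM. MMP3 fell by 4.88 from D11 to D15 (adjusted p = 7.4e-04) and MMP2 by 2.34 (adjusted p = 0.0021). Of the transcription factors, FOS and JUN, subunits of AP-1, fell from D0 to D3 by 2.66 (adjusted p = 3.9e-06) and 1.51 (adjusted p = 2.2e-04). FOSL1, another AP-1 subunit of the list, rose over that span by 1.94 (adjusted p = 0.0023), from 8.70 and 8.99 CPM to 43.5 and 26.8 CPM. It fell from D7 to D11, from 17.8 and 21.4 CPM to 5.83 and 5.95 CPM (log2 −1.79, adjusted p = 0.0067). RUNX2 was at 3.76 and 3.13 CPM on D9, when SPP1 was highest, and at 0.753 and 1.02 CPM on D15, a called fall from D11. HBEGF, a growth factor that is bound by forms of CD44 with heparan sulfate, was called higher on D3 than on D0, at 1.82 and 3.79 CPM. It was also called higher on D11 than on D7, at 22.4 and 13.9 CPM (log2 2.42, adjusted p = 8.8e-04, edgeR).

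The counts of the first and the last span leaned on single pools and on the spread shared by all pools. With only the 4 pools of D0 and D3 in the fit, edgeR called 0 genes of the list between these days, the changes named above included, with 3 higher and 12 lower at an unadjusted p under 0.05. Without pool A of D0, 3 genes of the list were called between D3 and D0, and without pool B of D0, 4 were. Between D15 and D11, 1 was called without pool A of D15, 3 without pool B of D15, 4 without pool A of D11 and 3 without pool B of D11.

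In single cells, SPP1 had a floor that differed between libraries. In 4 libraries almost every cell carried SPP1: in pool A of D7, 67 of 1727 cells were under 50 CPM, in pool A of D11 81 of 2925, and in the first aliquots of pools A and B of D9 none of 143 and none of 889. In the second aliquots of D9, from the same pools, 260 of 1599 and 131 of 764 cells were under 50 CPM. The 5th percentile of cells was 294 CPM in the first and 16.9 CPM in the second aliquot of pool A, and 190 and 13.6 CPM in those of pool B. On D7 it was 55.2 CPM in pool A and 0 in both aliquots of pool B.

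Other genes were measured in the same cells to set this floor beside. KRT8, an epithelial keratin, had a 5th percentile of 335 and 18.7 CPM in the first and second aliquots of pool A of D9, of 229 and 16.2 CPM in those of pool B, and of 155 CPM in pool A of D7 against 0 in both aliquots of pool B. For COL1A1, a fibroblast collagen, it was 1.03 and 16.1 CPM in the first aliquots of D9 and 0 in the second ones. It was 187 CPM in pool A of D11 against 33.9 and 19.3 CPM in the aliquots of pool B. On D7 that of COL1A1 was 145 CPM in pool A and 53.1 and 165 CPM in the aliquots of pool B. In pool A of D11 the 5th percentile of KRT8 was 217 CPM, against 24.4 CPM and 0 in the aliquots of pool B. LEFTY2, a gene of pluripotent cells, was at 0 at the 5th percentile of each library of D7 and D9 and of both aliquots of pool B of D11, and at 17.3 CPM in pool A of D11. Whether RNA outside cells set the floor of SPP1 was not tested. The libraries with a floor were therefore compared within themselves as well, as given below.

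**Figure D2:**
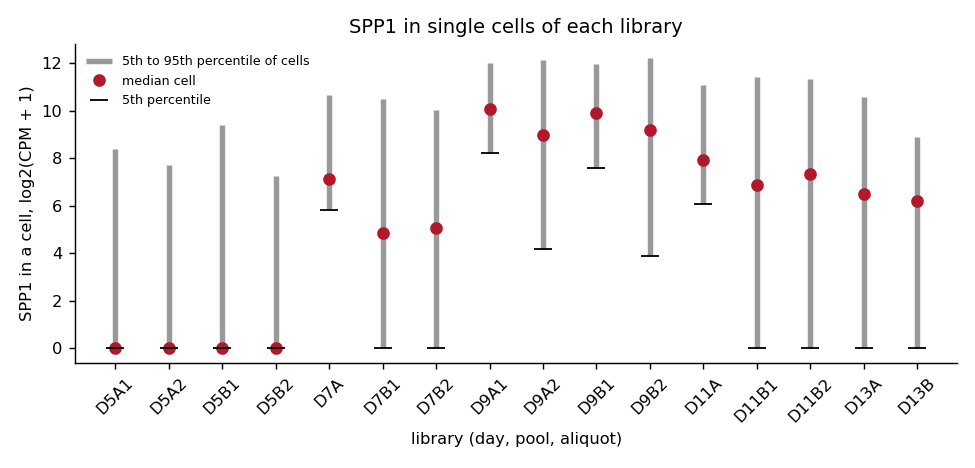
SPP1 in single cells of each library from D5 to D13, as log2(CPM + 1). Grey bars run from the 5th to the 95th percentile of cells, black ticks mark the 5th percentile and red points the median cell. The ticks sit at 0 except in pool A of D7, the 4 libraries of D9 and pool A of D11, and on D9 they are higher in the first than in the second aliquots.

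To find out which cells carried SPP1 from D7 to D11, the cells of each pool were split into those with at least 1 SPP1 UMI at 5000 UMIs and those with none. On D7, 1012 cells of pool A and 732 of pool B had SPP1, and 715 and 1771 had none. On D9, 1270 and 1377 cells had it and 472 and 276 had none, and on D11, 2100 and 1863 had it and 825 and 1419 had none. With no thinning, SPP1 was found in 99.9% and 73.0% of cells of pools A and B on D7. These shares were 96.1% and 98.1% on D9 and 99.8% and 88.5% on D11. Cells without SPP1 are thus, here and below, cells that drew no UMI of it at 5000, and many held it at full depth. All other genes were summed over the cells of each class and compared within pools (edgeR, 12 sums in 1 fit with the pool as a block). Of 12793 genes, 237 (1.85%) were called higher and 108 (0.844%) lower in cells with SPP1 on D7. On D9, 1074 (8.4%) were higher and 1031 (8.06%) lower, and on D11, 615 (4.81%) were higher and 977 (7.64%) lower. These counts rest on 2 pools. Without pool B, 9 genes were called on D7 and 316 on D11, and on D9 982 were called without pool A and 1058 without pool B. DESeq2 called 125, 1156 and 457 genes on the 3 days.

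On D7 the cells with SPP1 were higher in genes of early epithelial and pluripotent character. CLDN6, a claudin of embryonic epithelium, was at 77.5 CPM in cells with SPP1 and 20.4 CPM in cells without in pool A, and at 78.1 and 4.97 CPM in pool B (log2 2.90, SE 0.25, adjusted p = 1.4e-06). ANKRD1, a target of YAP signalling, came next, with 65.8 against 13.4 CPM and 64.5 against 6.55 CPM (log2 2.84, adjusted p = 1.4e-06). UTF1 and TDGF1, both genes of pluripotent cells, were higher by 1.97 and 1.70 on the log2 scale, and the metallothioneins MT1G and MT1H by 1.72 and 1.69. For CLDN6 and ANKRD1 the cells without SPP1 of both pools were below the cells with SPP1 of both pools.

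Of the 108 genes that were lower in D7 cells with SPP1, MMP1 had the largest fall among those at 50 CPM or more. MMP1, a collagenase, was at 327 CPM with and 592 CPM without SPP1 in pool A, and at 256 and 686 CPM in pool B (log2 −1.14, adjusted p = 2.7e-04). MGP, a matrix inhibitor of calcification, the arginine synthesis enzyme ASS1, the neutrophil chemokine CXCL1, the lipocalin APOD and the proteoglycan DCN were lower by 1.13, 1.11, 1.02, 0.94 and 0.92 on the log2 scale. Each of these was lower in both pools, but without pool B the calls were lost: 9 genes were then called higher and 0 lower on D7, with 888 of all genes at an unadjusted p under 0.05.

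On D9 more genes were called in both directions than on D7. ACTA1, a skeletal muscle actin, was at 101 CPM with and 12.7 CPM without SPP1 in pool A and at 146 and 14.5 CPM in pool B (log2 3.16, SE 0.38, adjusted p = 3.2e-06). LEFTY2, LEFTY1 and NODAL, which act in one signalling loop of pluripotent and early embryonic cells, were higher by 3.04, 2.71 and 2.53, LEFTY2 going from 27.5 and 44.9 CPM in cells without to 302 and 255 CPM in cells with SPP1 (adjusted p = 1.3e-09). ANKRD1 and PIFO, a gene of the primary cilium, completed the 6 largest rises, at 2.50 and 2.44. The largest fall was that of MMP1, at 140 against 1504 CPM in pool A and 94.7 against 1216 CPM in pool B (log2 −3.53, adjusted p = 1.1e-10). APOD (−3.41), the stromelysin MMP3 (−3.12), the growth factor AREG (−3.12), the lysyl oxidase LOXL4 (−3.11) and CXCL1 (−3.10) followed.

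On D11 the gene with the largest rise was CSH1, a placental lactogen, at 156 against 46.5 CPM in pool A and 222 against 14.7 CPM in pool B (log2 2.79, SE 0.27, adjusted p = 9.0e-07). ACTA1 was higher by 2.21, HPGD, which breaks down prostaglandins, by 1.89, LEFTY2 by 1.89, the annexin ANXA3 by 1.49 and PLBD1 by 1.22. MMP1 was lower by 1.99, at 390 against 1048 CPM and 230 against 1394 CPM, and ANPEP, a surface peptidase of fibroblasts, by 1.78. The matrix protein ECM1 (−1.74), the transcription factors POU2F2 (−1.67) and TWIST2 (−1.66) and LOXL4 (−1.59) were the other large falls. The order of rises and falls on D7, D9 and D11 is among genes with at least 50 CPM in the higher class of both pools. CXCL8, below that level, was lower by 2.88 on D11. MMP1 was thus lower in the cells with SPP1 in all 6 pools.

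**Figure D3:**
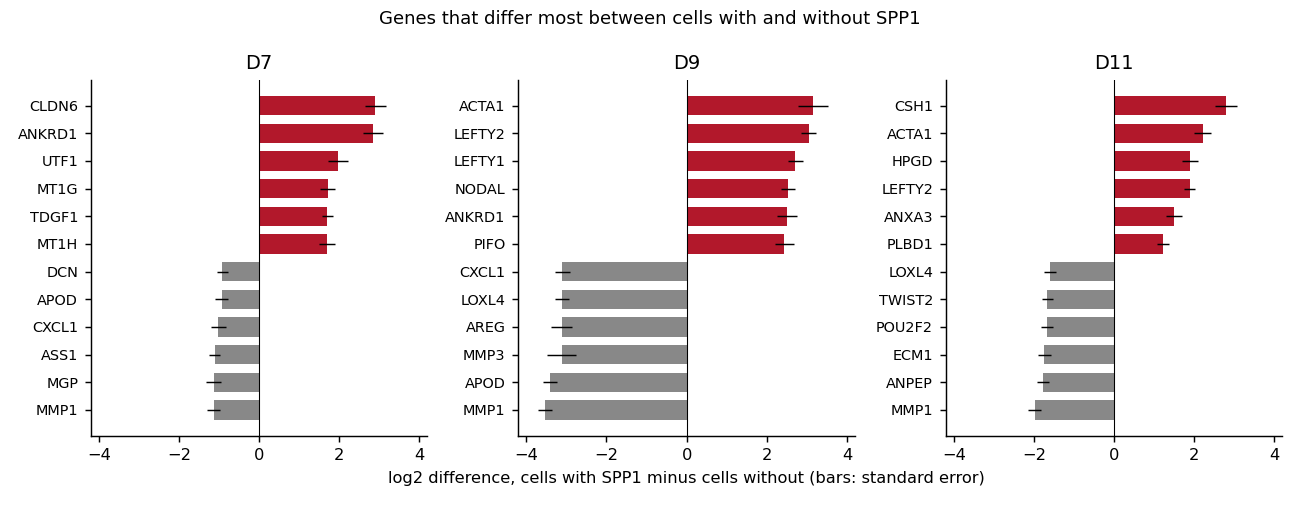
The 6 largest called rises (red) and falls (grey) in cells with against cells without SPP1 on D7, D9 and D11, among genes with at least 50 CPM in the higher class in both pools. Bars give the log2 difference and black lines its standard error from 2 pools a day; MMP1 is the lowest bar on each day, at −1.14, −3.53 and −1.99.

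On D9 the class and the aliquot overlapped, since the first aliquots gave 4 of the 472 cells without SPP1 in pool A and 59 of the 276 in pool B. The comparison was therefore repeated between the upper and the lower tertile of the cells of each library by their SPP1 level, a choice made after the data were seen. All 36 changes named above were called in the same direction between the tertiles. Of the genes called between cells with and without SPP1, 317 of 345 (91.9%) were called the same way between the tertiles on D7, 1453 of 2105 (69.0%) on D9 and 1567 of 1592 (98.4%) on D11. These were 43.0%, 81.8% and 46.6% of the 737, 1776 and 3360 genes called between the tertiles, and 1 gene on D9 was called in opposite directions. For LEFTY2 on D9 the difference between the tertiles was 3.54 on the log2 scale and for MMP1 −5.91.

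Lists of cell type markers were set beside the 1.85% of all genes called higher and 0.844% called lower on D7, the 8.4% and 8.06% on D9, and the 4.81% and 7.64% on D11. Of 12 pluripotency markers, 9 were called higher in cells with SPP1 on D7, 12 on D9 and 10 on D11, and none was called lower. The list includes POU5F1 and NANOG, which were also supplied as mRNA, and TDGF1 and LEFTY2, which are named above. Of 7 epithelial markers, 4, 7 and 6 were higher and none lower. Of 12 fibroblast markers, 6, 11 and 11 were lower on the 3 days, and of 8 inflammatory markers tested, 4, 7 and 7 were lower, with none higher in either list. DESeq2 called 7, 12 and 4 of the pluripotency markers and 3, 5 and 2 of the epithelial markers higher. It called 3, 10 and 9 of the fibroblast markers and 0, 7 and 5 of the inflammatory markers lower, so the inflammatory calls of D7 were lost. Summed over the list, the epithelial markers of D9 stood at 2992 and 3229 CPM in cells with SPP1 and at 1014 and 1134 CPM in cells without, in pools A and B, while the inflammatory markers stood at 331 and 230 CPM with and 2861 and 2171 CPM without.

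Of cell types that are known for osteopontin, osteoblast and macrophage markers were at low summed levels. The trophoblast list, of more genes, summed to more, on D0 as well. On D0 its members CSH1, HAND1, GCM1 and VGLL1 had at most 3 UMIs in each pool. The sum of D0 thus came almost wholly from other members, and on D9 only GCM1 was at this limit. The 6 osteoblast markers, of which RUNX2, IBSP and DMP1 also belong to the list of osteopontin and CD44 genes, summed to 27.2 and 24.2 CPM in the pools of D9. Of the 2 that could be tested, 0 were called between the cell classes on each of the 3 days by edgeR and by DESeq2, while 0, 1 and 2 had an unadjusted p under 0.05 in edgeR. The 7 macrophage markers summed to 89.8 and 88.7 CPM on D0 and were below 15.2 CPM in all pools of D7, D9 and D11, and C1QA had at most 3 UMIs in each pool of D9. In cells with SPP1 the macrophage list was at 3.78 and 6.25 CPM on D9, and in cells without at 20.3 and 23.9 CPM. The 11 trophoblast markers, CSH1 among them, summed to 236 and 189 CPM in the pools of D7, 204 and 196 CPM on D9 and 272 and 246 CPM on D11, beside 154 and 161 CPM on D0, with GCM1 at 3 UMIs or fewer in each pool. On D11 they stood at 272 and 317 CPM in cells with SPP1 and at 184 and 114 CPM in cells without, of which CSH1 made up the 156 and 222 CPM and the 46.5 and 14.7 CPM given above. Over the 5 tested the median log2 difference was 0.46 on D7, 0.38 on D9 and −0.26 on D11. At an unadjusted p under 0.05 in edgeR, 4, 3 and 2 were higher and 0, 1 and 3 lower on these days. Of the 5, 0, 2 and 1 were called higher on D7, D9 and D11 by edgeR, and 0, 1 and 0 by DESeq2. Their part in the level of SPP1 was not tested. Of 3 mesendoderm markers tested, 1 was called lower on D11 by edgeR and 0 by DESeq2, and the 1 endothelial marker tested was not called on any of the 3 days, with an unadjusted p under 0.05 on D9.

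Of the 39 tested genes of the osteopontin and CD44 list, 2 were called higher and 2 lower in cells with SPP1 on D7, 7 and 10 on D9, and 5 and 14 on D11, to be read beside the 1.85% and 0.844%, 8.4% and 8.06%, and 4.81% and 7.64% of all genes given above. By DESeq2 the counts were 0 and 0 on D7, 4 and 10 on D9, and 2 and 5 on D11. On D7 EZR and HAS3 were the genes called higher, and TNFAIP6, an inflammation-induced binder of hyaluronan, and MMP2 were the genes called lower. EZR was higher on each of the 3 days, by 0.73, 1.58 and 0.84 on the log2 scale, at 232 against 76.7 CPM and 277 against 97.1 CPM on D9 (adjusted p = 6.4e-08). ESRP1, which is also one of the epithelial markers, was higher on D9 (1.82) and D11 (0.81), and so were MMP9 (1.64 and 0.73) and the proteoglycan VCAN (0.76 and 0.56). SRGN was lower on D9 (−2.15) and D11 (−1.45), as were PLAU, the urokinase (−1.37 and −1.21), and FOSL1 (−1.43 and −1.08). Of the integrins, ITGB5 was higher on D9 (1.09) and ITGA5 lower (−0.96), while on D11 ITGA8 (−1.86) and ITGB1 (−0.39) were lower. ITGA4 was lower on D11 too, at 9.33 against 16.2 CPM in pool A and 5.58 against 17.8 CPM in pool B.

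Whether the genes that go with SPP1 differed between D7 and D11 was tested directly. Of 12793 genes, 1 (0.00782%) had a more positive and 36 (0.281%) a more negative difference on D11, and 1440 had an unadjusted p under 0.05. The count was not stable: it was 7 with DESeq2, 158 without pool A of D11, and 0 in edgeR both with cells thinned to 10000 UMIs and without pool B of D7, where 1774 and 1197 genes had an unadjusted p under 0.05. Of the largest rises of D7, CLDN6, ANKRD1 and TDGF1 had a smaller excess in cells with SPP1 on D11 than on D7, and so did the pluripotency markers POU5F1 (log2 2.47 on D7 and 0.64 on D11) and DPPA4 (1.97 and 0.51). CXCL8 (−0.73 and −2.88), POSTN (−0.02 and −1.20), PLAU (−0.10 and −1.21) and MMP14 (0.13 and −0.76), the other members of the lists with a called difference, had a more negative difference on D11.

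The 13832 cells of D7, D9 and D11 were also clustered on 13294 genes, leaving out SPP1, CD44 and the other genes of the list. This gave 17 clusters, of which 9 drew at least 80% of their cells from 1 library, so the clusters follow libraries as well as cell states. Clusters are therefore compared inside a pool, among those with at least 5% of its cells, and are named by number and leading genes only. Where a pool holds 2 libraries its clusters can still differ by library, as stated below. Doublets were neither called nor removed.

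In each pool but pool B of D9, SPP1 was lowest and CD44 highest in a cluster that was led by inflammatory or matrix genes. In pool B of D9 this was cluster 9, with 1263 CPM of SPP1 and 64.0 CPM of CD44. That holds only among the clusters large enough to be compared. Cluster 10, with 59 cells (3.57%) of pool B of D9, was below the limit on the share of cells. It had 39.9 CPM of SPP1 and 461 CPM of CD44 there, with 30.2% of the pool's CD44 UMIs. Cluster 10, led by the cytokine genes CXCL8 and IL1B and by PTX3, had 22.9 CPM of SPP1 and 471 CPM of CD44 in pool B of D7, and 45.8 and 473 CPM in pool A of D9. It held 19.4% and 8.61% of the cells of these pools, 1.18% and 0.222% of their SPP1 UMIs, and 48.5% and 45.5% of their CD44 UMIs. In pool B of D11 the lowest SPP1 was in cluster 8, led by the matrix genes DPT, LTBP2 and ELN, with 47.8 CPM and 213 CPM of CD44. Cluster 11 of pool A of D11, with COMP and ELN among its leading genes, had 156 CPM of SPP1 and 159 CPM of CD44.

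These clusters also give a background for the shares of cells. At 5000 UMIs, 11.5% of the cells of cluster 10 had an SPP1 UMI in pool B of D7 and 17.3% in pool A of D9, with a median depth of 35928 and 41534 UMIs before thinning. These cells came from the second aliquot for 430 of 485 and 150 of 150. In clusters that came from the same aliquots the shares were 26.1% in cluster 9 of pool B of D7 (median 39998 UMIs, 369 of 371 cells from the second aliquot) and 88.6% in cluster 4 of pool A of D9 (median 72938 UMIs, 892 of 892). In libraries with a floor of SPP1 the share was higher in clusters of this kind, at 42.4% in cluster 15 of pool A of D7, led by CCL7 and CASP1 (median 48980.5 UMIs), and at 48.9% in cluster 11 of pool A of D11 (median 46310 UMIs), whereas cluster 8 of pool B of D11 had 20.8% (median 33021 UMIs). The shares of all cells of pool A, 58.6% on D7 and 71.8% on D11, are to be read beside them. The level of cluster 10 stood above the 0.582 and 0.659 CPM of the fibroblasts of D0.

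On D9 the clusters that were highest in SPP1 were clusters 6 and 4, whose leading gene was PCAT14, a long noncoding RNA. SPP1 stood there at 1715 and 1381 CPM in pool A and at 1494 and 1493 CPM in pool B, with 21.8 CPM of CD44 or less. The first aliquots gave 119 of the 146 cells of cluster 6 in pool A and 779 of the 786 in pool B, and the second aliquots gave 892 of 892 and 450 of 452 cells of cluster 4, so the cluster cannot be told apart from the aliquot and its floor of SPP1. Together they made up most of the SPP1 UMIs of these pools, 15.9% and 70.4% in pool A and 46.2% and 44.5% in pool B. Cluster 9, led by PI3, DKK1 and EFEMP1 and high in 6 of 12 fibroblast markers, had 1298 and 1263 CPM on D9, close to clusters 4 and 6, but 175 CPM in pool B of D7. On D7 cluster 3, led by BCYRN1 and AKR1C1, had the highest level among clusters with at least 5% of the cells, at 433 and 418 CPM in pools A and B. In pool B, 217 of its 227 cells came from the first aliquot. The second aliquot gave 880 of the 882 cells of cluster 5 and 369 of the 371 of cluster 9. In that pool the order of the clusters thus cannot be told apart from the aliquots. Clusters 4 and 6 were also present in pool B of D7, with 78 and 13 cells, and had 1120 and 1040 CPM there, so that the 3.12% of cells in cluster 4 held 17.1% of the SPP1 UMIs of the pool.

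On D11 SPP1 was high both in clusters with many pluripotency and mesendoderm markers and in clusters led by actin genes, and their order depended on the clustering. Over all cells of D11, the 8 mesendoderm markers summed to less in cells with SPP1. They stood at 200 and 109 CPM with SPP1 and at 236 and 235 CPM without, in pools A and B. In pool A, cluster 2, with 12 of 12 pluripotency and 7 of 8 mesendoderm markers high and with CER1 and MIXL1 as leading genes, had 626 CPM, and cluster 7, with the actins ACTC1 and ACTA2 and with SAA1, CXCL14 and TAGLN among its leading genes, had 806 CPM. In pool B, cluster 1, also with 12 of 12 pluripotency and 7 of 8 mesendoderm markers high, had 713 CPM, and cluster 12, with ACTC1, ACTA2, COL14A1 and COL2A1 among its leading genes, had 981 CPM. Clusters 7 and 12 had 2 and 3 of 12 fibroblast markers high and none of the pluripotency markers. Since they hold 24.4% and 16.6% of the cells, clusters 2 and 1 still held most of the SPP1 UMIs, with 71.7% and 65.0%. At a resolution of 0.3, clusters with the same 12 of 12 and 7 of 8 markers high had 626 and 711 CPM in pools A and B and the other large clusters 483 and 432 CPM. At a resolution of 1.2, clusters with CER1 and MIXL1 among their leading genes were highest, at 889 and 1208 CPM, above 799 and 900.4 CPM in the actin clusters. The clusters with CER1 and MIXL1 had 5 and 7 of 12 pluripotency and 7 of 8 mesendoderm markers high. The clusters with 11 of 12 pluripotency and 0 of 8 mesendoderm markers high, with 33.6% and 32.5% of the cells of pools A and B, had 484 and 471 CPM. With 30 principal components the actin clusters were highest, at 878 and 875 CPM against 628 and 737 CPM. SPP1 was lowest in the clusters with COMP or DPT among their leading genes in both pools at a resolution of 1.2 and with 30 principal components too.

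**Figure D4:**
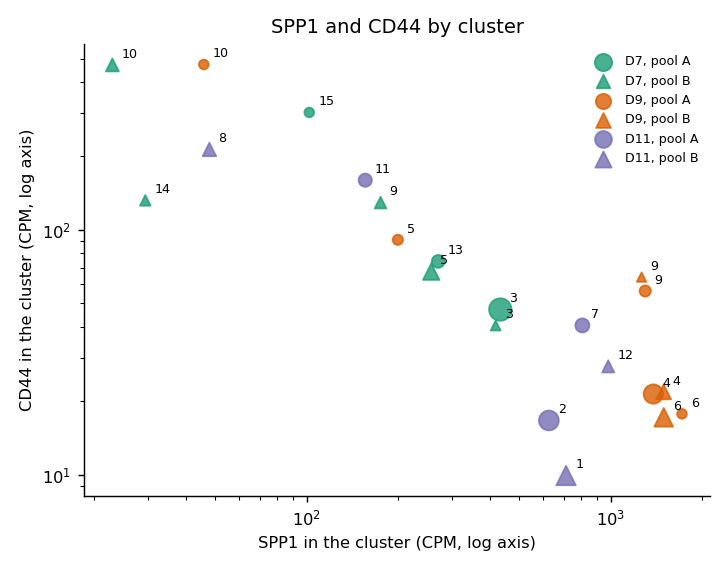
SPP1 against CD44 in each cluster that holds at least 5% of the cells of a pool, both in CPM on log axes. Colours give the day, circles pool A and triangles pool B, the area of a symbol grows with the share of the pool's cells, and numbers name the clusters. Cluster 10 lies at the upper left with 22.9 and 45.8 CPM of SPP1, and clusters 4 and 6 of D9 lie at the lower right.

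CD44 was lower in the cells with SPP1 than in the cells without it in both pools of each day from D5 to D13. At 5000 UMIs per cell, it was at 127 CPM with and 354 CPM without SPP1 in pool A of D5 and at 81.9 and 248 CPM in pool B. On D7 the gap was narrow in pool A (70.4 against 85.9 CPM) and wider in pool B (94.0 against 196 CPM). On D9 it was widest, at 35.1 against 192 CPM in pool A and 33.8 against 137 CPM in pool B, log2 differences of −2.45 and −2.02. On D11 the values were 41.0 against 77.3 CPM and 32.2 against 108 CPM, and on D13 32.1 against 45.4 CPM and 14.2 against 19.4 CPM. On D15 the pools went in opposite directions, with 8.70 against 11.7 CPM in pool A and 21.0 against 14.4 CPM in pool B. The cells with SPP1 were deeper in all pools from D5 to D13, with a median of 83248 against 75980 UMIs in pool A of D7 for example, which is why both the classes and the levels were taken at 5000 UMIs per cell.

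Between the upper and lower tertile of the cells of each library the same direction held in the 6 pools of D7 to D11, with log2 differences of CD44 of −1.45 and −1.18 on D7, −3.04 and −2.40 on D9, and −1.91 and −2.94 on D11. Inside clusters the gap was smaller and went both ways. In 16 combinations of a cluster and a pool with at least 50 cells in each class, CD44 was lower in the cells with SPP1 in 10 and higher in 6, with a median log2 difference of −0.21 and a range from −1.76 in cluster 9 of pool A of D9 to 0.72 in cluster 1 of pool B of D11. In cluster 10 of pool B of D7, CD44 was at 507 CPM with and 474 CPM without SPP1.

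The cells with a UMI of both genes were a minority at this depth, a share that the thinning set. With no thinning, 96.1% and 98.1% of the D9 cells of pools A and B had an SPP1 UMI. A CD44 UMI was then found in 66.8% and 62.3% of the D9 cells. The shares that follow are at 5000 UMIs. On D9, 167 of the 1742 cells of pool A (9.59%) and 155 of the 1653 cells of pool B (9.38%) had a UMI of each. On D7 the shares were 14.4% and 8.19%, on D11 11.4% and 6.73%, and on D15 0.701% and 2.18%. CD44 had a UMI in 13.1% and 11.3% of the D9 cells with SPP1 and in 42.4% and 36.6% of those without.

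**Figure D5:**
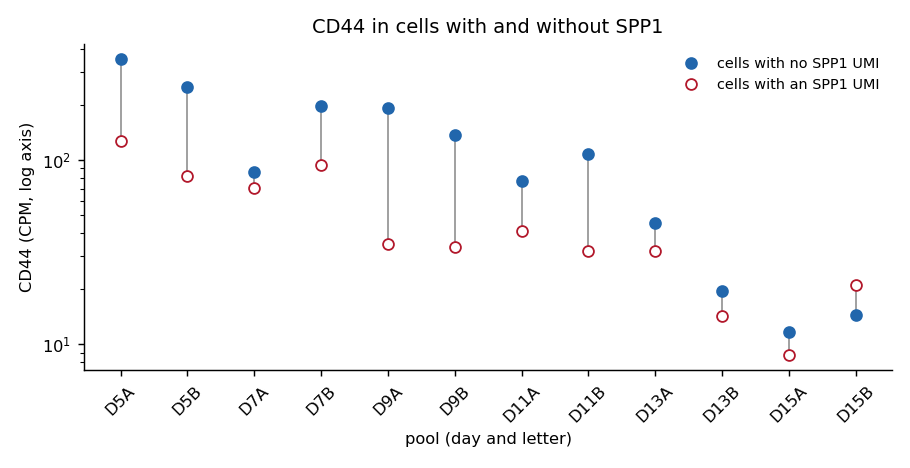
CD44 in CPM on a log axis, at 5000 UMIs per cell, in the cells with no SPP1 UMI (filled blue) and with one (open red) of each pool from D5 to D15. The blue point lies above the red one in all pools from D5 to D13, and in pool B of D15 the order is turned, at 14.4 against 21.0 CPM.

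Of 3384 other genes with a day mean of at least 50 CPM, those whose pattern over the 16 pools was most like that of SPP1 on the log2(CPM + 1) scale were KRT8 (Pearson r 0.972), TSPAN6 (0.965), PVRL2 (0.959), ASRGL1 (0.958), GPC4 (0.955), CTGF (0.952), BAMBI (0.949) and PIFO (0.949). Of these, 6 had their highest day mean on D9, as SPP1 did, and TSPAN6 and CTGF had theirs on D11. KRT8 was at 26.4 CPM on D0, 851 CPM on D9 and 510 CPM on D15, so it stayed high where SPP1 had gone down. Most like CD44 were PAMR1 (0.991), PTGS1 (0.987), SRGN (0.985), TWIST2 (0.984), VIM (0.984), MDFIC (0.984), GSTK1 (0.983) and ASPH (0.983), all highest on D0. VIM, the intermediate filament of mesenchymal cells, went from 10379 CPM on D0 to 539 CPM on D15. By Spearman correlation in place of Pearson, the 8 genes named for SPP1 ranked from 9 (CTGF and PIFO) to 46 (GPC4). Those named for CD44 ranked from 1 (TWIST2) to 94 (GSTK1). These correlations describe 16 pools that share days and are given with no test.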

How the data were processed

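The authors deposited raw UMI counts per gene and barcode, with no normalization. Cell Ranger 2.2 (per the submitters' processing notes) made them on hg38 with its GRCh38 annotation. The 44197 barcodes are those that the paper counts as cells before its own limits on genes and mitochondrial reads. Barcodes that Cell Ranger did not take for cells are not among them. Libraries followed the 10x 3′ protocol. Aliquots of a pool were added together. Barcodes under 1000 genes or over 10% mitochondrial UMIs were dropped, as were genes found in under 5% of cells before testing. UMIs were summed per pool, or per pool and class of cells, and compared with edgeR 4.0.16 (quasi-likelihood test, TMM, Benjamini-Hochberg) in R 4.3.3, with DESeq2 1.42.0 as an alternative. The tests were first tried on simulated counts. Alternatives changed the tool, the scaling, the filters, the thinning, the block, the classes of cells and the clustering, or left out 1 pool. SPP1 and CD44, the gene lists and the tests were chosen with earlier results of these data known. Named genes are up to 4 of the largest called rises and falls per span in the list, the 6 per day between cell classes, the 8 most alike and the 10 leading genes of clusters. Other genes of the lists were named for their role after their values were seen.

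Pool totals ranged from 33181614 to 180056814 UMIs, and intervals were not computed because pools carry the spread. Clusters were made on log2(CPM + 1) by the Louvain method (igraph 0.11.9, resolution 0.6) from a graph of 30 neighbours in 100 principal components. Gene positions come from gencode v44 and promoter windows from RefSeq. No protein sequence was used here.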

Additional observations from a re-analysis of the deposited data

Results flagged for a closer look

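For 9 genes that were named above or belong to the lists, the difference between cells with and without SPP1 differed between D7 and D11 by a test of the difference itself (edgeR, adjusted over 12793 genes, 2 pools a day). CLDN6 was higher in cells with SPP1 by 2.90 on the log2 scale on D7 and by 0.82 on D11, a difference of −2.08 (SE 0.31, adjusted p = 0.0023). In cells without SPP1 it was at 20.4 and 4.97 CPM on D7 and at 174 and 143 CPM on D11. ANKRD1 was higher by 2.84 and 0.61, a difference of −2.24 (SE 0.29, adjusted p = 0.0010), and stood at 13.4 and 6.55 CPM on D7 and at 181 and 77.5 CPM on D11 in cells without SPP1. TDGF1 was higher by 1.70 and 0.67, a difference of −1.02 (SE 0.18, adjusted p = 0.0080). These 3 genes were higher in cells with SPP1 in both pools of both days. Of the other members of the lists, the difference changed by −1.83 for POU5F1 (adjusted p = 0.0013), −1.46 for DPPA4 (adjusted p = 0.0080), −2.15 for CXCL8 (adjusted p = 0.0080), −1.18 for POSTN (adjusted p = 0.0017), −1.11 for PLAU (adjusted p = 0.0014) and −0.89 for MMP14 (adjusted p = 0.0096). The 9 calls were lost, with 0 genes called in edgeR, with cells thinned to 3000 or 10000 UMIs, without pool B of D7 and without the pool as a block, where 1083, 1774, 1197 and 389 of all genes had an unadjusted p under 0.05.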

How the results depend on the processing

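There were 185 alternatives to the counts of called genes, the level ratios and the shares. Of these, 132 stayed within 1.5 times the value given above or within the spread between pools, and 53 did not. Counts and shares have no direction to turn. Of 80 alternatives to log2 ratios, 77 stayed, 3 moved and 0 turned the direction. Of 245 alternatives to further values, 177 stayed and 68 did not. The cause of the changes was not tested. For the osteopontin and CD44 list, the 9 genes called between D3 and D0 became 14 with no filter on genes, 3 to 10 with 1 pool left out, and 0 when only the 4 pools of these days were fitted with edgeR, where 3 genes of the list were higher and 12 lower at an unadjusted p under 0.05, and 2851 and 2580 of all genes. The 7 genes called between D15 and D11 became 13 with DESeq2, 14 with no filter, 15 with only these 4 pools and 1 to 4 with 1 pool left out. Over all genes, the 3280 called between D3 and D0 became 0 with only the 4 pools and 1444 or 1499 without 1 pool of D0. The 1015 called between D7 and D3 became 1550 with DESeq2, 2043 with no filter and 570 with only their 4 pools. The 1474 called between D11 and D7 became 3530 with no filter and 868 to 891 without pool A or B of D11 or pool B of D7. The 1115 called between D15 and D11 became 2075, 2417 and 2245 with DESeq2, no filter and only 4 pools, and 174 to 431 with 1 pool left out.

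Between cells with and without SPP1, DESeq2 called 125, 1156 and 457 genes on D7, D9 and D11, and thinning to 3000 UMIs left 206, 1110 and 910. Leaving out 1 pool gave 9 to 269 on D7, 982 to 1058 on D9 and 316 to 1378 on D11. On D7 there were 551 with at least 2 SPP1 UMIs against none, 674 with no filter on genes and 653 with the library as the block. Tertiles of each library gave 737 on D7 and 3360 on D11, and 953 and 3654 without the first aliquots of D9. The 37 genes whose difference changed between D7 and D11 became 7 with DESeq2, 14 with its size factors in edgeR, 17 with at least 2 UMIs, 98 with the library as the block, 172 with no filter, 305 with tertiles and 466 with tertiles without the first aliquots of D9. They became 0 in edgeR with cells thinned to 3000 or 10000 UMIs, with 1083 and 1774 genes at an unadjusted p under 0.05, and 0 to 158 with 1 pool left out.

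Without the replicate block, that is with the day in place of the pool, 7, 622 and 0 genes were called on D7, D9 and D11 and 0 for the difference, with 1973 genes on D11 and 389 for the difference at an unadjusted p under 0.05. Between days the pool letter served as a replicate block, under which 11, 6, 10 and 7 genes of the list were called over the 4 spans. The letters mark no shared source that the labels name, and the differences between pools A and B correlated by −0.447 to 0.817 over 28 pairs of days, 10 of them above 0.1.

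Without the 1% of cells highest in SPP1, its log2 ratio was 2.17 between D3 and D0 and 8.15 between D7 and D3. With stricter limits on cells, 2000 genes or more and 5% mitochondrial UMIs or fewer, the log2 ratio of CD44 between D15 and D11 was −1.21. The depth set the shares of cells with SPP1. With no thinning they were 86.4% on D7, 97.1% on D9 and 94.2% on D11, at 10000 UMIs 86.6% on D9 and 78.0% on D11, and at 3000 UMIs 70.3% and 52.6%.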
